A study of Homo sapiens with 19 samples.

Results

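Interferon-stimulated genes were followed through 10 transcripts of 9 genes, IFIT1 (ENST00000371804), IFIT2 (ENST00000371826), IFIT3 (ENST00000371818 and ENST00000371811), HERC5 (ENST00000264350), OAS1 (ENST00000202917), OASL (ENST00000257570), MX1 (ENST00000398598), ISG15 (ENST00000379389) and DDX58 (ENST00000379883). The transcripts were taken by their Ensembl identifiers from tables of 175775 transcripts, and all 10 were present in each of the 17 RNA libraries. The list was chosen by name and selected on estimated reads over the 6 groups, with earlier results of these data known. No threshold on a value is stated in that choice, so no member lies just inside or outside one. Differences between groups are therefore given as descriptions. The adjusted p-values come from fits across all transcripts and are no independent support for the list. Each gene is represented only by the listed transcript or transcripts. Reads on other transcripts of the same gene are not counted here.

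Poly(A) RNA was sequenced from MDA-MB-231, an established human line of triple-negative breast cancer with mesenchymal features. In the siRNA experiment, cells were transfected with STAT3 siRNA (siSTAT3, 2 libraries), HMGN5 siRNA (siHMGN5, 2 libraries) or control siRNA (NC, 4 libraries). In the lentiviral experiment, cells received STAT3 siRNA together with HMGN5 (siSTAT3_HMGN5, 3 libraries), STAT3 siRNA with the control vector (siSTAT3_Vec, 3 libraries) or control siRNA with the control vector (NC_Vec, 3 libraries). All groups share the cell line, 10% serum and siRNA at 30 nM delivered with Lipofectamine RNAiMAX. The 3 lentiviral groups also share infection. The siRNA sequences and the promoter that drives ectopic HMGN5 are not given in the sources used here. STAT3 is a transcription factor activated by cytokine receptors, and HMGN5 binds nucleosomes and loosens compact chromatin.

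Type I and type III interferons bind receptors on the cell surface, and JAK kinases at these receptors pass the signal to transcription factors that enter the nucleus. Many antiviral genes carry the interferon-stimulated response element in their promoters, a direct repeat of GAAA, and interferon regulatory factors bind related repeats. STAT3 is itself activated by interferons in many cells.

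The promoter letters were examined because most of these transcripts moved together in siSTAT3_Vec against NC_Vec and in siSTAT3_HMGN5 against siSTAT3_Vec. Whether the repeats bear on those changes was not tested. RefSeq windows (GRCh38.p14, 250 bases before to 50 bases after a start) existed for 7 of the 9 genes, in 10 windows, with DDX58 listed under its current symbol RIGI. Windows for IFIT2 and OASL were not used here. The repeat with a 2-base spacer, GAAA followed by any 2 bases and GAAA again on either strand, was present in 7 of the 10 windows and in 3.57% of all 35116 windows. The repeat with a 1-base spacer, GAAANGAAA on either strand, was added after the windows had been read, and stood in 5 of the 10 windows and in 3.12% of all. At least 1 of the 2 forms was found in each of the 10 windows, against 6.4% of all windows. Since the 1-base form was added after reading these windows, that joint count is no test. The count of the 2-base form is no test either, since the genes were listed as interferon-stimulated, a class in which this element is common. The 10 windows are also not independent, with 3 from MX1 and 2 from IFIT3. The 2-base form alone was present in 5 of the 7 genes. The palindrome TTCNNNGAA, the core of sites bound by STAT dimers, was present in the OAS1 window and 1 of 3 MX1 windows, against 7.66% of all. A match of letters is a description of the window and not a measured binding site. The transcript tables do not say which start a library used.

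The stretches below show the repeats in capitals, with 15 flanking bases on each side, read 5′ to 3′ along the gene. They are shown as a description of these windows, whose genes were chosen by name. Overlapping matches run together as a single block of capitals.
IFIT1, chr10:89392492-89392544, plus strand: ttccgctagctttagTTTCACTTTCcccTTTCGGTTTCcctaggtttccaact
IFIT3, first start, chr10:89327826-89327899, plus strand: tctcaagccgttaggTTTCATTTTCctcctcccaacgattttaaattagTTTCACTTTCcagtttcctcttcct
IFIT3, downstream start, chr10:89332420-89332507, plus strand: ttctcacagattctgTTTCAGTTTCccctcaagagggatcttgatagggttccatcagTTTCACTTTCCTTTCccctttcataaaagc
HERC5, chr4:88456979-88457069, plus strand: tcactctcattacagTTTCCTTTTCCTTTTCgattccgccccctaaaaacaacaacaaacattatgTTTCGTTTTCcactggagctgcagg
ISG15, chr1:1013369-1013414, plus strand: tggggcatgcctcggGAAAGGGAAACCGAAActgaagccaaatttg
OAS1, chr12:112906930-112906968, plus strand: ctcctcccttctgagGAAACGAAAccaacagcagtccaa
MX1, first start, chr21:41420524-41420593, plus strand: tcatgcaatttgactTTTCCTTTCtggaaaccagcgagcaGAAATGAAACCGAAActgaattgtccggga
DDX58, chr9:32526376-32526414, minus strand: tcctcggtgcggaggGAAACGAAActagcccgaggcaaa

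**Figure D1:**
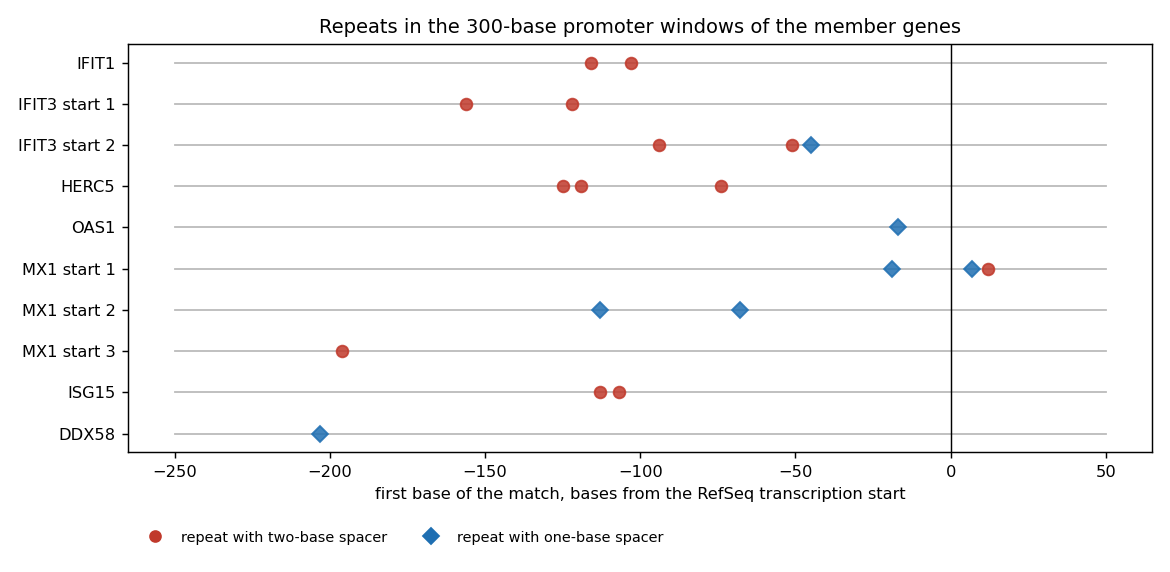
Position of each repeat in the 10 RefSeq promoter windows, as the first base of the match in bases from the transcription start (x axis), with 1 row per window. Circles mark repeats with a 2-base spacer and diamonds those with a 1-base spacer; the repeats of IFIT1 begin at -116 and -103, and that of DDX58 at -203.

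Relative to the start, the first IFIT1 repeat begins at -116 and the second at -103. In the ISG15 window the pair begins at -113 and -107 and shares bases, and in the HERC5 window 3 repeats begin at -125, -119 and -74. OAS1 and DDX58 had the 1-base form only, at -17 and at -203. By the RefSeq annotation the genes lie on 6 chromosomes: IFIT2, IFIT3 and IFIT1 are clustered at chr10:89302046-89309271, chr10:89327997-89340968 and chr10:89392623-89406487. HERC5 lies at chr4:88457119-88506163, ISG15 at chr1:1013497-1014540, MX1 at chr21:41420558-41459214 and DDX58 at chr9:32455302-32526196. OAS1 and OASL are both on chromosome 12, at 112906962-112933219 and 121017761-121039246.

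Libraries held 19114033 to 19509422 estimated reads in the siRNA experiment and 22500086 to 23047081 in the lentiviral one, so that 3 reads equal 0.147 to 0.155 CPM and 0.132 to 0.138 CPM. CPM values are reads scaled to library size, with TMM factors over all 17 libraries. The NC libraries fell into pairs: the median chi-square per transcript was 2.66 and 2.99 within replicates 1 and 2 and within replicates 3 and 4, and 6.58 to 6.71 across them, against 2.41 to 3.26 inside other groups. For the members with at least 20 reads, the median was 4.55 and 1.17 within these pairs and 16.4 to 61.9 across them. Inside other groups the median of the members was 0.931 to 9.4. Every result against NC is therefore also given without either pair. A pair of libraries is all that siSTAT3 and siHMGN5 have, so a difference between library pairs and an effect of the siRNA cannot be told apart. The levels of STAT3 and HMGN5 were not analysed here, since the tables do not pair transcripts with gene names, and the cell line markers were not checked for the same reason. The labels do not say that replicates were separate cultures, so p-values measure the spread between these libraries. In bulk RNA, fewer expressing cells and less RNA per cell cannot be told apart.

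Per unit of transcript length, IFIT1 had the highest mean of the 10 in every group but siSTAT3. There OAS1 was highest at 7.37 ± 1.05 TPM, followed by DDX58 at 6.02 ± 1.04 TPM, IFIT3 ENST00000371818 at 5.81 ± 0.384 TPM and IFIT1 at 5.13 ± 0.402 TPM (SD, n = 2). In siSTAT3_Vec the deposited TPM averaged 63.3 ± 2.24 for IFIT1, 41.3 ± 4.61 for IFIT3 ENST00000371818, 38.9 ± 2.28 for IFIT3 ENST00000371811 and 24.9 ± 1.3 for OAS1 (SD, n = 3). In NC_Vec the same level was 23.4 ± 0.267, 12.2 ± 0.545, 10.1 ± 0.331 and 17.3 ± 0.769 TPM in that order (SD, n = 3), which puts OAS1 above both IFIT3 transcripts there. The listed ISG15 transcript was scarce, with group means of 0.374 to 3.29 TPM and 3.7 to 84.1 estimated reads per library, and its values say little about the level of the gene as a whole. IFIT2 was also scarce outside siSTAT3_Vec, with group means of 0.0239 to 0.683 TPM, against 2.67 ± 0.155 TPM in siSTAT3_Vec (SD, n = 3).

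**Figure D2:**
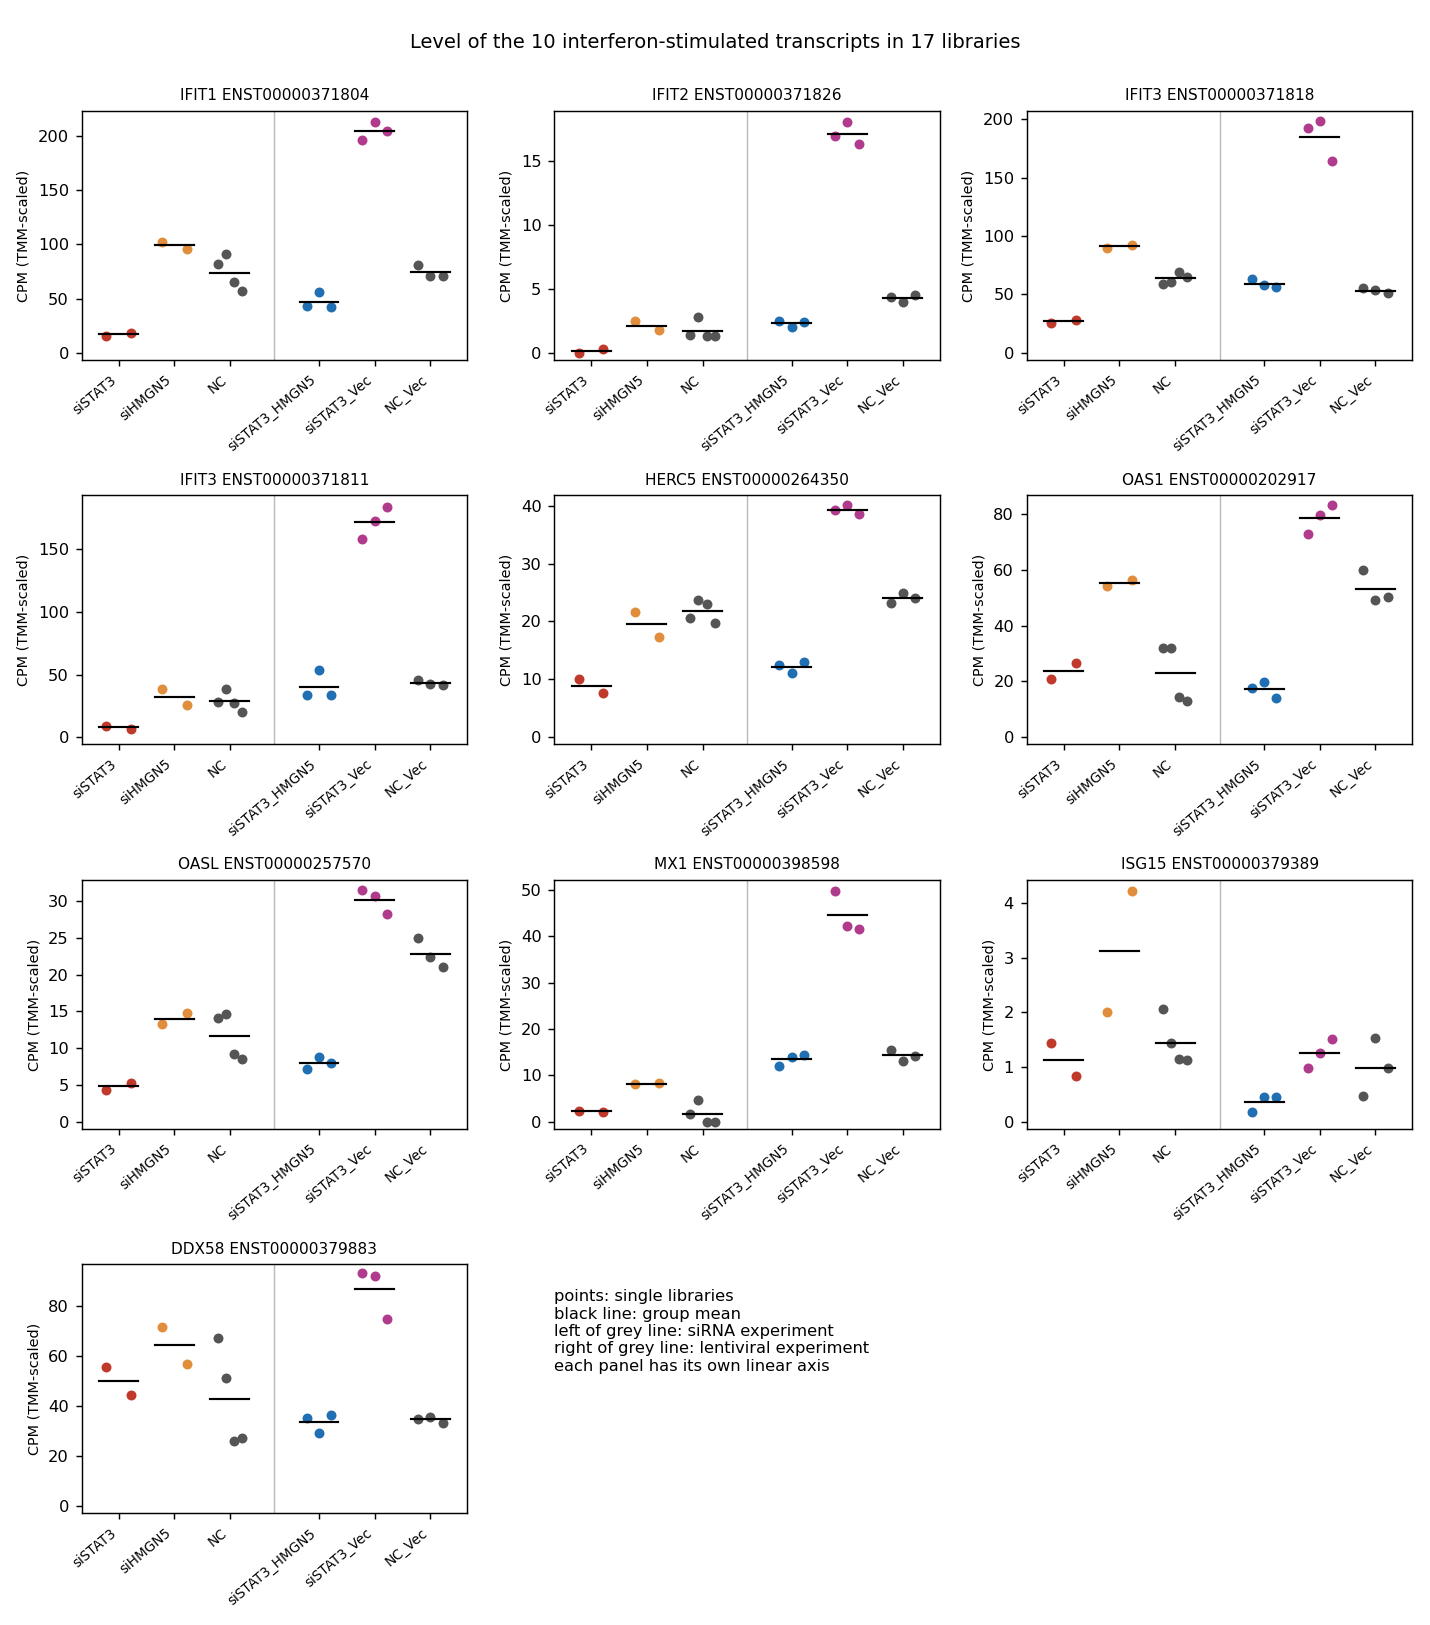
CPM of each transcript (y axis, linear, scaled separately per panel) in every library, by group along the x axis; points are libraries and black lines are group means. In 9 of the 10 panels siSTAT3_Vec has the highest mean of the 6 groups, from 17.1 CPM for IFIT2 to 205 CPM for IFIT1. The exception is the listed ISG15 transcript. The share of all transcripts highest in siSTAT3_Vec was not computed.

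STAT3 siRNA without lentiviral infection was addressed by siSTAT3 against NC. IFIT1, both IFIT3 transcripts and HERC5 were lower in siSTAT3, and IFIT2, OASL, OAS1, MX1, ISG15 and DDX58 did not pass the test. In the fit of all 74346 transcripts, 4 of the 10 were lower and none higher, while 2.92% of all transcripts were called lower (edgeR, adjusted p below 0.05). The median log2 fold change of the 10 was -1.24, against 0 for all transcripts.

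IFIT1, whose protein binds viral RNA with an incompletely methylated cap and blocks its translation, had 15.8 and 18.1 CPM in siSTAT3, against 81.5, 91.2, 64.8 and 56.7 CPM in NC. Both siSTAT3 libraries lay below all 4 NC libraries, with a log2 fold change of -2.09 ± 0.22 (SE) and an adjusted p of 0.00599. IFIT3, which stabilises IFIT1 in a complex, was lower in both of its transcripts. ENST00000371818 had 25.2 and 28.4 CPM in siSTAT3, against 59.4, 60.8, 69.5 and 65.1 CPM in NC (log2 fold change -1.23 ± 0.10, adjusted p = 0.00325). ENST00000371811 had 9.2 and 6.94 CPM in siSTAT3, against 28.3, 38.4, 27.7 and 19.9 CPM in NC (log2 fold change -1.80 ± 0.32, adjusted p = 0.0311). The groups did not overlap for either transcript. IFIT2, the RNA-binding partner of the other IFIT proteins, was listed at 0 and at 6.1 estimated reads in siSTAT3, against 28, 54, 24.7 and 25.2 reads in NC. Its log2 fold change of -3.37 ± 1.22 did not pass the test (adjusted p = 0.222), but it passed by DESeq2 (adjusted p = 0.000851) and with all 17 libraries in 1 fit (adjusted p = 0.0158).

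HERC5, the main ligase that joins ISG15 to other proteins, had 9.97 and 7.67 CPM in siSTAT3, against 20.6, 23.7, 23 and 19.7 CPM in NC (log2 fold change -1.28 ± 0.18, adjusted p = 0.0152). OASL, a relative of the OAS enzymes that lacks their synthase activity and enhances RIG-I signalling, had 4.37 and 5.23 CPM in siSTAT3, against 14.1, 14.6, 9.25 and 8.52 CPM in NC. The OASL groups did not overlap, but the difference missed the threshold (log2 fold change -1.25 ± 0.29, adjusted p = 0.07). It passed by DESeq2 (adjusted p = 0.000302) and with all 17 libraries in 1 fit (adjusted p = 0.00225). OAS1, which makes the oligoadenylates that activate RNase L, had 21 and 26.5 CPM in siSTAT3, against 32.1, 32.1, 14.3 and 12.9 CPM in NC. For OAS1 the siSTAT3 libraries lay between the NC pairs. DDX58, which encodes the cytosolic RNA sensor RIG-I, had 55.7 and 44.5 CPM in siSTAT3, against 67.3, 51.3, 25.9 and 27.2 CPM in NC, so that siSTAT3 lay within the range of NC replicates 1 and 2 or just below it, and above NC replicates 3 and 4. MX1, a GTPase that traps viral nucleocapsids, had 2.36 and 2.07 CPM in siSTAT3, against 1.66, 4.67, 0 and 0 CPM in NC. ISG15, a ubiquitin-like modifier, had 28.4 and 16 estimated reads in siSTAT3, against 40.8, 28.4, 22.2 and 22.3 reads in NC, and the groups overlapped.

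The choice of NC libraries decided the direction of several members. For this and every later refit, the share of all transcripts called was not computed, so the counts describe the members only. Without NC replicates 3 and 4, 5 members were lower and none higher, OASL being added (log2 fold change -1.55, adjusted p = 0.0164). Without NC replicates 1 and 2, 3 members were lower (IFIT1, IFIT3 ENST00000371818 and HERC5) and 3 were higher: OAS1 (log2 fold change 0.80, adjusted p = 0.0409), DDX58 (0.91, adjusted p = 0.0465) and MX1, which had no reads in either NC library left. Without siSTAT3 replicate 1 or 2, 1 member, IFIT3 ENST00000371818, passed the test. IFIT1 then had adjusted p of 0.06 and 0.0506 and HERC5 of 0.0615 and 0.112. The call of IFIT3 ENST00000371811 also ended without NC replicate 1 or 3 (adjusted p = 0.0656 and 0.0675).

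**Figure D3:**
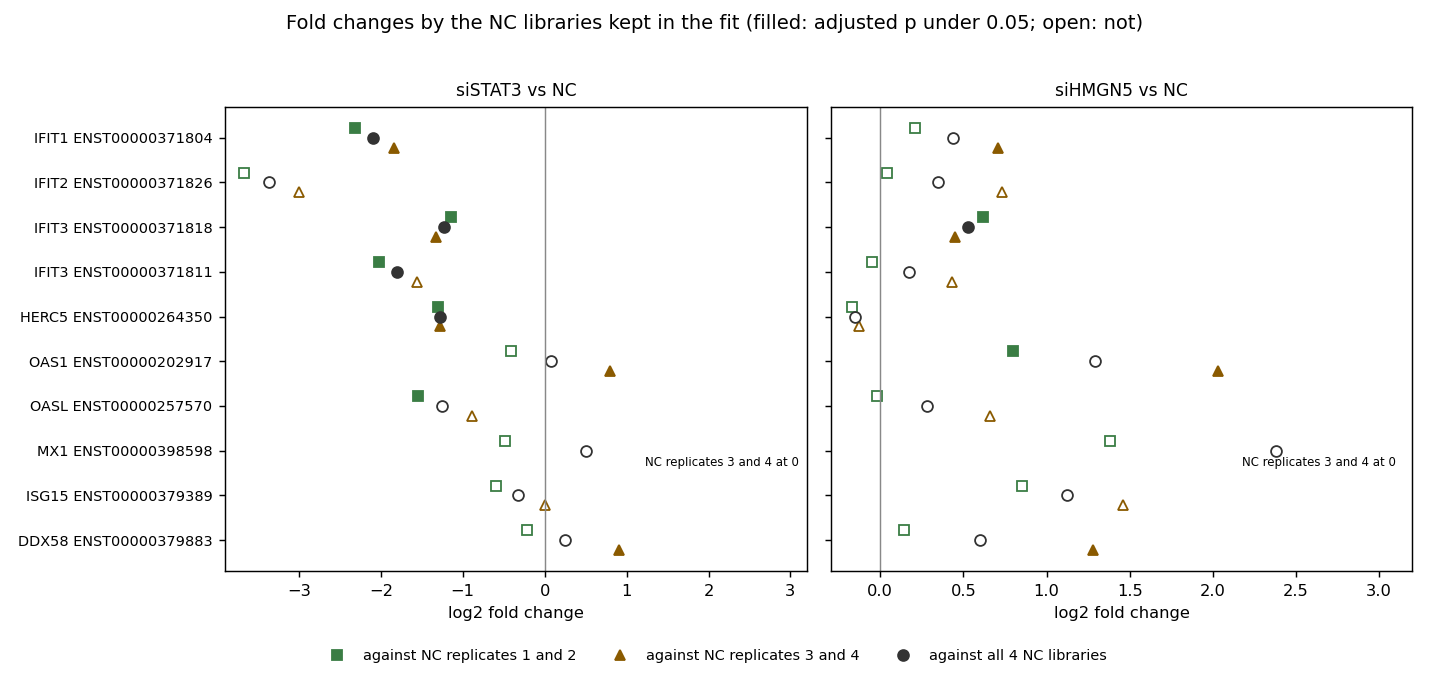
Log2 fold change (x axis) of each transcript for siSTAT3 vs NC (left) and siHMGN5 vs NC (right), with NC replicates 1 and 2 (squares), NC replicates 3 and 4 (triangles) or all 4 NC libraries (circles); filled symbols passed an adjusted p of 0.05. The siSTAT3 values of OAS1 lie at -0.41, 0.80 and 0.08 in that order; MX1 has no triangle because NC replicates 3 and 4 were at 0.

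HMGN5 siRNA was compared with the same controls. IFIT3 ENST00000371818 was the only member to pass, at 90.1 and 92.7 CPM in siHMGN5, against 59.4, 60.8, 69.5 and 65.1 CPM in NC (log2 fold change 0.53 ± 0.10, adjusted p = 0.038). Across all 74346 transcripts 0.943% were called higher. The IFIT3 call ended without NC replicate 1, 2 or 4 or either siHMGN5 library (adjusted p = 0.0718 to 0.241), and when the reads of both IFIT3 transcripts were summed (log2 fold change 0.43, adjusted p = 0.0608). OAS1 had 54.1 and 56.3 CPM in siHMGN5, against 32.1, 32.1, 14.3 and 12.9 CPM in NC. With all NC libraries OAS1 missed the threshold (log2 fold change 1.29 ± 0.41, adjusted p = 0.18). It passed by DESeq2 (adjusted p = 0.021) and with all 17 libraries in 1 fit (adjusted p = 0.0255), and it was higher against NC replicates 1 and 2 alone (0.80, adjusted p = 0.046) and against NC replicates 3 and 4 alone (2.03, adjusted p = 0.007). MX1 had 8.03 and 8.28 CPM in siHMGN5, above the 1.66, 4.67, 0 and 0 CPM of NC, with a standard error of 1.75 on its log2 fold change of 2.38 (adjusted p = 0.58). HERC5 did not pass, at 21.7 and 17.3 CPM in siHMGN5, against 20.6, 23.7, 23 and 19.7 CPM in NC. Without NC replicates 1 and 2, 5 members were higher, and without NC replicates 3 and 4, 2 were. The share of all transcripts called in these refits was not computed. The 5 were IFIT1 (0.71, adjusted p = 0.0302), IFIT3 ENST00000371818, OAS1, MX1 and DDX58 (1.28, adjusted p = 0.0225).

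The STAT3 and HMGN5 siRNAs were then set against each other, with the NC libraries entering only the estimate of the spread. In siSTAT3 against siHMGN5, 4 of the 10 members were lower and none higher, while 1.87% of 74346 transcripts were called lower. These were IFIT1 (log2 fold change -2.53 ± 0.24, adjusted p = 0.00506), IFIT3 ENST00000371818 (-1.76 ± 0.12, adjusted p = 0.00208), IFIT3 ENST00000371811 (-1.97 ± 0.35, adjusted p = 0.0322) and HERC5 (-1.13 ± 0.20, adjusted p = 0.0314). OASL had 4.37 and 5.23 CPM in siSTAT3, against 13.2 and 14.7 CPM in siHMGN5, and missed the threshold (adjusted p = 0.0552). OAS1 had 21 and 26.5 CPM in siSTAT3, against 54.1 and 56.3 CPM in siHMGN5 (log2 fold change -1.21 ± 0.49, adjusted p = 0.285). The median of the 10 log2 fold changes was -1.64, against 0 for all. Without any 1 of the 4 libraries compared, 2 members stayed past the threshold, IFIT1 and IFIT3 ENST00000371818, and the calls of HERC5 and IFIT3 ENST00000371811 ended (adjusted p = 0.0701 to 0.186). With the NC libraries left out of the fit, these 2 calls also ended (adjusted p = 0.0854 and 0.0592), and OAS1, OASL and MX1 were called lower (adjusted p = 0.0434, 0.0439 and 0.0414).

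In cells carrying the control vector, STAT3 siRNA went with higher levels of these transcripts. In siSTAT3_Vec against NC_Vec, 9 of the 10 members were higher and none lower, while 7.2% of 69768 transcripts were called higher. The median log2 fold change of the 10 was 1.38, against 0.02 for all. IFIT1 had 197, 213 and 204 CPM in siSTAT3_Vec, against 80.5, 71.2 and 71 CPM in NC_Vec (log2 fold change 1.45 ± 0.11, adjusted p = 0.000188). IFIT2 had 16.9, 18 and 16.4 CPM in siSTAT3_Vec, against 4.38, 4 and 4.51 CPM in NC_Vec (1.98 ± 0.12, adjusted p = 7.08e-05). For these 2 genes every siSTAT3_Vec library was above every NC_Vec library by more than the whole spread within either group. The same held for the other members except OASL and ISG15. The share of all transcripts separated in this way was not computed. IFIT3 ENST00000371818 had 193, 199 and 164 CPM in siSTAT3_Vec, against 55.4, 53.4 and 51.2 CPM in NC_Vec (1.78 ± 0.08, adjusted p = 1.98e-05). IFIT3 ENST00000371811 had 158, 172 and 184 CPM in siSTAT3_Vec, against 45.4, 42.8 and 41.4 CPM in NC_Vec (1.97 ± 0.18, adjusted p = 0.00037). The share of the summed IFIT3 reads on ENST00000371818 was 47.2% to 54.9% in siSTAT3_Vec and 54.9% to 55.6% in NC_Vec, so both transcripts moved by a similar factor.

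Outside the IFIT family, MX1 and DDX58 changed most. MX1 had 49.7, 42.2 and 41.6 CPM in siSTAT3_Vec, against 15.6, 13.1 and 14.3 CPM in NC_Vec (log2 fold change 1.62 ± 0.12, adjusted p = 0.000124). DDX58 had 93.4, 92 and 74.7 CPM in siSTAT3_Vec, against 35.1, 35.6 and 33.5 CPM in NC_Vec (1.31 ± 0.11, adjusted p = 0.000261). HERC5 had 39.2, 40.1 and 38.5 CPM in siSTAT3_Vec, against 23.2, 25 and 24.1 CPM in NC_Vec (0.69 ± 0.07, adjusted p = 0.000767). The OAS family moved least among the called members. OAS1 had 72.8, 79.4 and 83.1 CPM in siSTAT3_Vec, against 60, 49.3 and 50.2 CPM in NC_Vec (0.55 ± 0.13, adjusted p = 0.0322). OASL had 31.5, 30.7 and 28.2 CPM in siSTAT3_Vec, against 25, 22.4 and 21.1 CPM in NC_Vec (0.39 ± 0.11, adjusted p = 0.0483). Both OAS family calls lay near the threshold and ended without NC_Vec replicate 2 or 3 or any siSTAT3_Vec library (adjusted p = 0.0627 to 0.161). ISG15 had 0.98, 1.25 and 1.51 CPM in siSTAT3_Vec, against 0.462, 1.54 and 0.973 CPM in NC_Vec, and the groups overlapped. When all 17 libraries shared 1 estimate of the spread, 5 members were called, and IFIT2, MX1, OAS1 and OASL were not (adjusted p = 0.0599, 0.466, 0.359 and 0.293).

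**Figure D4:**
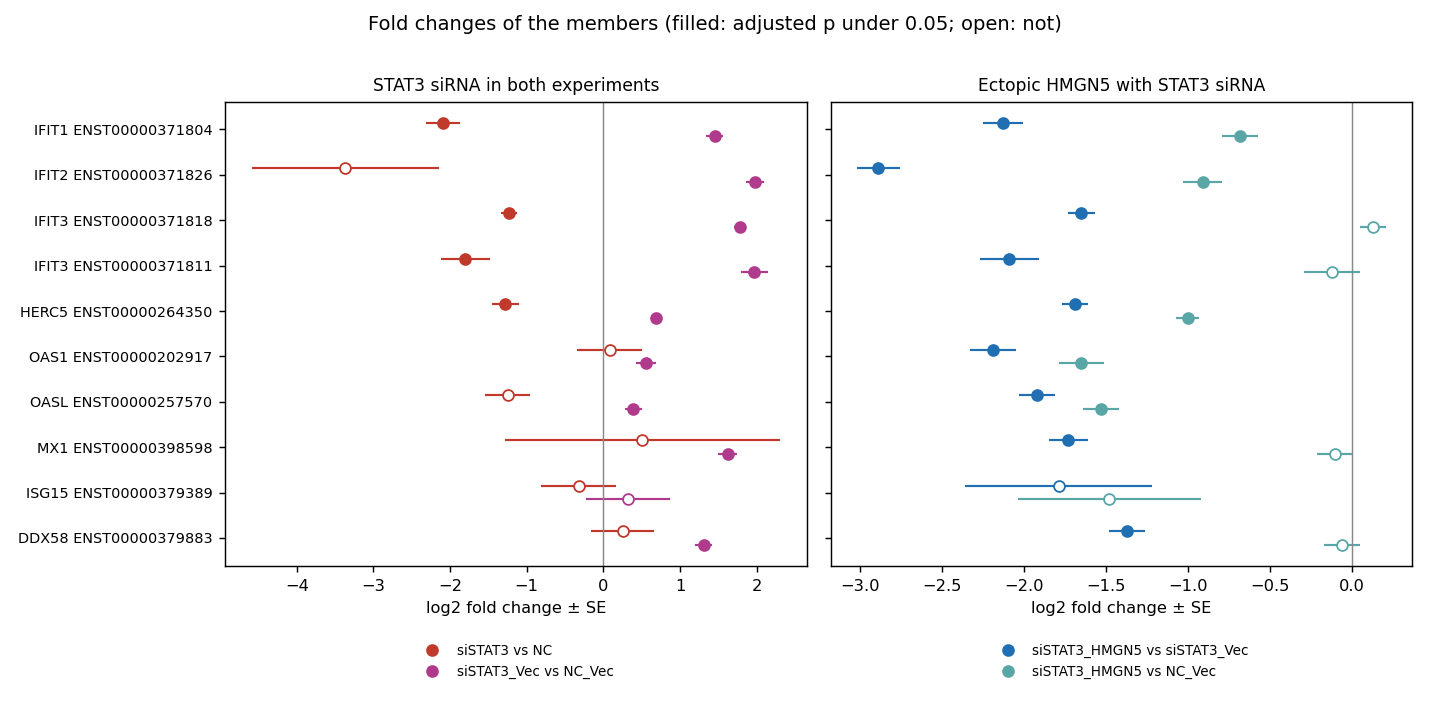
Log2 fold change ± SE (x axis) of each transcript for siSTAT3 vs NC and siSTAT3_Vec vs NC_Vec (left) and for siSTAT3_HMGN5 vs siSTAT3_Vec and siSTAT3_HMGN5 vs NC_Vec (right); filled points passed an adjusted p of 0.05. IFIT1 lies at -2.09 and 1.45 on the left and at -2.13 and -0.68 on the right.

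The STAT3 siRNA effect in the siRNA experiment was then set against that in the lentiviral one, and their difference was tested with the 17 libraries fitted together. The effect was lower in the siRNA experiment for 6 of the 10 members and higher for none, while 3.28% of 86839 transcripts were called lower. The difference of log2 fold changes was -3.56 ± 0.24 for IFIT1 (adjusted p = 2.81e-06), -3.03 ± 0.14 for IFIT3 ENST00000371818 (adjusted p = 1.75e-07) and -1.99 ± 0.18 for HERC5 (adjusted p = 3.2e-05). It was -1.08 ± 0.43 for DDX58 (adjusted p = 0.2) and -0.48 ± 0.44 for OAS1 (adjusted p = 0.674). Without NC replicates 3 and 4, 9 members were called lower, DDX58 (-1.54, adjusted p = 0.00156) and OAS1 (-0.97, adjusted p = 0.0151) among them, and without NC replicates 1 and 2, 6 were lower and 1, MX1, higher. The share of all transcripts called without either NC pair was not computed. Infection, the experiment and its sequencing changed together, so they cannot be told apart.

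Ectopic HMGN5 in cells given STAT3 siRNA went with lower levels of nearly the whole list. In siSTAT3_HMGN5 against siSTAT3_Vec, 9 of the 10 members were lower and none higher, while 2.25% of 69768 transcripts were called lower. The median log2 fold change of the 10 was -1.86, against -0.01 for all. This comparison and siSTAT3_Vec against NC_Vec share the siSTAT3_Vec libraries, so opposite signs in them are not independent. IFIT2 had 2.46, 2.04 and 2.44 CPM in siSTAT3_HMGN5, against 16.9, 18 and 16.4 CPM in siSTAT3_Vec, a log2 fold change of -2.89 ± 0.13 (adjusted p = 0.000329). IFIT1 had 43.4, 55.6 and 41.7 CPM in siSTAT3_HMGN5, against 197, 213 and 204 CPM in siSTAT3_Vec (-2.13 ± 0.12, adjusted p = 0.000416). OAS1 had 17.8, 19.8 and 14 CPM in siSTAT3_HMGN5, against 72.8, 79.4 and 83.1 CPM in siSTAT3_Vec (-2.19 ± 0.14, adjusted p = 0.000768). OAS1 and IFIT1 therefore fell by like amounts here. OASL had 7.11, 8.79 and 8.02 CPM in siSTAT3_HMGN5, against 31.5, 30.7 and 28.2 CPM in siSTAT3_Vec (-1.92 ± 0.11, adjusted p = 0.000462). HERC5 had 12.4, 11.1 and 13 CPM in siSTAT3_HMGN5, against 39.2, 40.1 and 38.5 CPM in siSTAT3_Vec (-1.69 ± 0.08, adjusted p = 0.000329).

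For the other members, the log2 fold changes were -1.65 ± 0.08 and -2.09 ± 0.18 for IFIT3 ENST00000371818 and ENST00000371811 (adjusted p = 0.00037 and 0.00181), -1.73 ± 0.12 for MX1 (adjusted p = 0.000803) and -1.37 ± 0.11 for DDX58 (adjusted p = 0.00132). ISG15 had 0.182, 0.444 and 0.443 CPM in siSTAT3_HMGN5, against 0.98, 1.25 and 1.51 CPM in siSTAT3_Vec, which did not pass at 3.7 to 34.5 reads per library (adjusted p = 0.163). All 9 calls held without any 1 of the 6 libraries. The MX1 call ended when all 17 libraries shared 1 estimate of the spread (adjusted p = 0.632), and ISG15 was called lower by DESeq2 (log2 fold change -1.81, adjusted p = 0.0212).

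Set against the vector control, siSTAT3_HMGN5 was lower for the OAS family, HERC5, IFIT1 and IFIT2, while IFIT3, MX1, DDX58 and ISG15 did not pass the test. In siSTAT3_HMGN5 against NC_Vec, 5 of the 10 members were lower and none higher, while 11.4% of 69768 transcripts were called lower. OAS1 had 17.8, 19.8 and 14 CPM in siSTAT3_HMGN5, against 60, 49.3 and 50.2 CPM in NC_Vec (log2 fold change -1.65 ± 0.14, adjusted p = 0.00014). OASL (-1.53 ± 0.11, adjusted p = 6.34e-05), HERC5 (2-fold lower, adjusted p = 8.14e-05), IFIT2 (-0.91 ± 0.12, adjusted p = 0.00141) and IFIT1 (-0.68 ± 0.11, adjusted p = 0.00387) were lower as well. MX1 had 12, 13.9 and 14.5 CPM in siSTAT3_HMGN5, against 15.6, 13.1 and 14.3 CPM in NC_Vec. Its log2 fold change was -0.10 ± 0.11, and those of DDX58 and IFIT3 ENST00000371818 were -0.06 ± 0.11 and 0.13 ± 0.08 (adjusted p = 0.605, 0.761 and 0.31). The groups overlapped for MX1 and DDX58, and IFIT3 ENST00000371818 had 63.2, 58.1 and 56.1 CPM in siSTAT3_HMGN5, against 55.4, 53.4 and 51.2 CPM in NC_Vec. IFIT3 ENST00000371811 had 33.6, 53.3 and 34 CPM in siSTAT3_HMGN5, against 45.4, 42.8 and 41.4 CPM in NC_Vec, and was called lower once siSTAT3_HMGN5 replicate 2 was left out (-0.37, adjusted p = 0.0172). With all 17 libraries in 1 fit the IFIT2 call ended (adjusted p = 0.355), and DESeq2 called ISG15 lower (-1.51, adjusted p = 0.0341).

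Across the 6 groups, siSTAT3_Vec ranked first for 9 members and its libraries overlapped those of no other group there. The share of all transcripts with such a rank was not computed. Ranks across the 2 experiments mix treatment with experiment. The lowest group was siSTAT3 for IFIT1, IFIT2, both IFIT3 transcripts, HERC5 and OASL. For OAS1, siSTAT3_HMGN5 was lowest at 17.2 ± 2.94 CPM (SD, n = 3), and its libraries overlapped those of NC at 22.9 ± 10.7 CPM (SD, n = 4). For MX1, NC was lowest at 1.58 ± 2.2 CPM (SD, n = 4), overlapping siSTAT3 at 2.22 ± 0.207 CPM (SD, n = 2). DDX58 in siSTAT3_HMGN5 averaged 33.6 ± 3.75 CPM (SD, n = 3), and neighbours in its order overlapped from there up through NC_Vec, NC and siSTAT3.

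Transcripts outside the list with the most similar pattern were sought among 39378 with a mean of at least 2 CPM. Likeness was the root mean square difference, over 17 libraries, between log2(CPM + 0.5) centred within each experiment and the mean centred profile of the 9 members with at least 2 CPM. ENST00000423282.1 was closest, at 0.28, with 3.8 ± 0.7, 13.5 ± 0.717 and 6.37 ± 1.34 CPM in siSTAT3_HMGN5, siSTAT3_Vec and NC_Vec (SD, n = 3 each). In siSTAT3, siHMGN5 and NC it had 5.37 ± 0.759, 9.53 ± 1.57 and 6.54 ± 2.5 CPM (SD, n = 2, 2 and 4). ENST00000649529.1 followed at 0.3, with 66.4 ± 6.96, 247 ± 10.8 and 112 ± 16.1 CPM in the same lentiviral groups. In siSTAT3, siHMGN5 and NC it had 37.9 ± 5.17, 130 ± 3.18 and 46 ± 18.9 CPM. The genes of both transcripts were not identified, so either may be another transcript of a listed gene. The members themselves differed from that profile, which they had made, by 0.34 (OASL) to 0.46 (OAS1), except MX1 at 0.87, whose NC libraries lay between 0 and 4.67 CPM. Of the 39378 candidates, 20198 were closer to the profile than MX1. For the other members, 6 (OASL) to 46 (OAS1) candidates were closer.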

How the data were processed

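RNA-seq tables of 17 MDA-MB-231 libraries were used. The other 2 samples, H3K27ac CUT&Tag profiles, are not analysed here. Per the file headers, the deposited tables give transcript length, effective length, TPM and estimated counts of reads. The deposited TPM divides reads by effective length and fixes the sum in each library. Tools named in the submitters' processing notes are CASAVA, Salmon 1.4.0, Bowtie2 and HOMER, with GRCh38 and hg38. The transcript set and the mapping options are not given in the sources used here. Estimated counts divide shared reads between transcripts, so isoforms and relatives such as the IFIT genes can trade reads.

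Estimated counts were rounded. Each experiment was fitted apart with edgeR 4.0.16 (R 4.3.3; TMM, filterByExpr, glmQLFit, glmQLFTest) on all transcripts, with Benjamini-Hochberg adjustment and a threshold of 0.05. All 10 members passed the filter in every fit. Standard errors are the log2 fold change over the square root of the F statistic. Alternatives used DESeq2 1.42.0, limma-voom 3.58.1, other scalings, filters, offsets and sample sets. The scripts were tested on simulated data. Members and lists were chosen with earlier results of these data known. All members are named whatever their values. Genes of the wider interferon pathway were listed but not analysed, since transcripts are not paired with genes. Gene names of the members come from the list that defines them.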

Additional observations from a re-analysis of the deposited data

Results flagged for a closer look

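The STAT3 siRNA effect differed between the experiments for 6 transcripts, by the interaction test of edgeR over all 17 libraries. The difference of log2 fold changes, siRNA experiment minus lentiviral experiment, was -3.56 for IFIT1, -5.37 for IFIT2, -3.03 and -3.79 for IFIT3 ENST00000371818 and ENST00000371811, -1.99 for HERC5 and -1.66 for OASL, with adjusted p of at most 0.00492. IFIT2 rests on 0 and 6.1 estimated reads in siSTAT3, and its difference ranged from -10.15 to -4.41 when any 1 library was left out.

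In the NC group, IFIT2 replicate 2 stood apart at 2.77 CPM, with the other replicates at 1.41, 1.29 and 1.28 CPM. Its gap to the nearest library took 0.918 of the whole range. This was 1 of 10 such groups examined, and chance gives about 1 in 20.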

How the results depend on the processing

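Counts of called members kept within 1.5 times the reported value under most alternatives. The share of all transcripts called under each alternative was not computed. For siHMGN5 vs NC, 1 member was called; 2 were with DESeq2 or with all 17 libraries in 1 fit, 0 without a low-count filter, with only the compared groups and with the replicate block, 5 without NC replicates 1 and 2, 2 without NC replicates 3 and 4, and 0 to 1 without any 1 library. The range without 1 library was 1 to 4 of 4 for siSTAT3 vs NC and 2 in each case for siSTAT3 vs siHMGN5. For siSTAT3_Vec vs NC_Vec, 5 of 9 were called with all 17 libraries in 1 fit and 7 to 9 without 1 library. The cause was not tested.

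Sign changes concerned members that had not passed the test. In the siRNA experiment only NC has replicates 3 and 4, so the replicate block gives them terms of their own. Against NC, the block and the fit without these replicates are therefore nearly the same setting and do not back each other. In siSTAT3 vs NC they were DDX58 (-0.21 with the replicate block, -0.22 without NC replicates 3 and 4), MX1 (-0.37 and -0.49 under the same settings), OAS1 (-0.42 and -0.41, and -0.11 to 0.29 without single libraries) and ISG15 (0.00 without NC replicates 1 and 2, -0.77 to 0.02 without single libraries). In siHMGN5 vs NC they were IFIT3 ENST00000371811 (-0.08 with the block, -0.05 without NC replicates 3 and 4, -0.16 to 0.42 without single libraries) and OASL (-0.03 and -0.02 under the first 2). In the lentiviral experiment they were DDX58 in siSTAT3_HMGN5 vs NC_Vec (-0.13 to 0.02 without single libraries) and ISG15 in siSTAT3_Vec vs NC_Vec (-0.02 to 0.77 without single libraries). In the difference between experiments, MX1 gave 1.41 with limma-voom, -1.56 to 0.38 without single libraries and 6.95 without NC replicates 1 and 2, where the remaining controls are at 0, and OAS1 gave 0.25 without NC replicates 1 and 2.

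Deviations of same-numbered libraries from their group means correlated at -0.081 to 0.051 across transcripts, so this measure showed no pairing by replicate number. Since siSTAT3 and siHMGN5 have a single pair of libraries each, it could not show whether they go with either NC pair. With the replicate block, 3 members were called in siSTAT3 vs NC, 4 in siSTAT3 vs siHMGN5, 7 in siSTAT3_Vec vs NC_Vec, 9 in siSTAT3_HMGN5 vs siSTAT3_Vec, 5 in siSTAT3_HMGN5 vs NC_Vec and 8 for the difference between experiments. Against NC, the fold changes with the block are close to those without NC replicates 3 and 4, which the block absorbs. The members called were not the same ones: HERC5 and IFIT3 ENST00000371811 ended in siSTAT3 vs NC (adjusted p = 0.0943 and 0.0972), where OASL was added (0.048). The same 2 ended in siSTAT3 vs siHMGN5 (0.102 and 0.0886), where OAS1 and OASL were added (0.0414 and 0.0392). OAS1 and OASL ended in siSTAT3_Vec vs NC_Vec (0.0773 and 0.103), and DDX58 and OAS1 were added for the difference between experiments (0.00194 and 0.0419). The order of the members by TPM within each group was the same at 58 of 60 ranks with CPM per kilobase of effective length. ISG15 had 3.7 to 84.1 estimated reads per library.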
